A study of Mus musculus with 6 samples.

Results

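The 10 core genes of clathrin-mediated endocytosis were followed in RNA sequencing of cells sorted as peritoneal endothelial cells (ECs) from mice given peritoneal dialysis (PD) fluid or saline. They were the rows whose gene symbol was *Clta*, *Cltb*, *Cltc*, *Ap2a1*, *Ap2a2*, *Ap2b1*, *Ap2m1*, *Dnm2*, *Dab2* or *Picalm*, 10 of the 22183 genes in the table. Each symbol had 1 row, and all 10 were expressed highly enough to be tested among 14005 genes. PD mice (n = 3) received a daily intraperitoneal injection of glucose-based human Dianeal PD fluid and saline mice (n = 3) received saline, both for 6 weeks. All were wild-type adult male C57BL/6J animals without a transgene. The labels give magnetic sorting of CD31+ cells from peritoneal tissue, whereas the supplementary methods describe digested mesentery sorted by flow cytometry for CD31+ CD45- cells, so the gate behind the libraries is not settled. Poly(A) RNA of each mouse was sequenced once, and total counts ran from 21973426 to 26374292 per library.

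Clathrin-mediated endocytosis carries receptors and junction proteins from the cell surface into the cell. Clathrin heavy chains (*Cltc*) and light chains (*Clta*, *Cltb*) form 3-legged units that assemble into a cage on the membrane. The AP-2 complex, made of an alpha, a beta, a mu and a sigma subunit, joins the cage to the lipid PIP2 and to sorting signals in the tails of cargo. Further adaptors such as *Dab2* and *Picalm* add other cargo, and the GTPase dynamin (*Dnm2*) severs the neck of the pit. In ECs this route internalizes vascular endothelial-cadherin (VE-cadherin, *Cdh5*), transferrin receptor and the VEGF receptors. The comparison asks how the transcripts of this machinery stood in the sorted cells of PD mice and of saline mice, since the study examined VE-cadherin and vascular leakage in this model and VE-cadherin endocytosis in cultured ECs. In cultured human umbilical ECs, the study reported more clathrin bound to VE-cadherin under conditioned medium of mesothelial cells kept in high glucose. Knockdown of *PFKFB3* lowered this binding. From its RNA sequencing of sorted mouse ECs, the study also listed endocytosis among the most enriched gene sets. That wider gene set was not tested here.

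The largest difference belonged to *Dab2*, an adaptor that binds AP-2, clathrin and the tails of cargo such as integrins, which was 3.29-fold higher in PD mice. *Ap2a1* and *Ap2a2*, the 2 alpha subunits of AP-2, were 2.06-fold and 1.58-fold higher. *Picalm*, *Cltb* and *Cltc* differed by 1.33-fold or less, and *Clta*, *Ap2m1*, *Ap2b1* and *Dnm2* did not pass the test. In CPM (read counts relative to library size, scaled by TMM, edgeR's correction for library composition), edgeR called 6 of the 10 higher and 0 lower in PD mice at an adjusted p under 0.05 (6 and 0 at an unadjusted p under 0.05, 4 and 0 by DESeq2, 6 and 0 by limma-voom). Scaling to endothelial markers gave 1 higher and 8 lower, beside 8.33% higher and 72.1% lower of all tested genes under that scaling. With TMM scaling, 31.1% of all 14005 tested genes were higher and 27.8% were lower, 58.9% in all. The share of 6 in 10 called lay near that 58.9% for either direction. All 6 were higher, beside 31.1% of all genes, and this difference was not tested. Values of the groups did not overlap for 7 of the 10 genes, all 7 higher in PD mice, against 65.6% of all tested genes (34.0% higher, 31.6% lower). The median log2 fold change of the 10 genes was 0.29, beside 0.02 over all tested genes.

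The label of the cells was checked against its markers. Of 12 endothelial markers, 11 were higher in PD mice, and their summed level was 1145 to 1159 CPM in saline mice against 1827 to 1905 CPM in PD mice. In FPKM, which corrects for transcript length and sequencing depth, *Pecam1* (CD31) was 145 ± 4.44 (SD, n = 3) and *Cdh5* 4.72 ± 0.71 (SD, n = 3) in saline mice, while *Ptprc* (CD45), which endothelial cells lack, was 624 ± 30.2 (SD, n = 3). The 5 leukocyte markers summed to 6401 to 6764 CPM in saline mice and 4999 to 5068 CPM in PD mice. By these sums leukocyte marker transcripts exceeded endothelial marker transcripts in all 6 libraries, so the libraries are not of ECs alone. The 12 macrophage markers were all higher in PD mice (summed 2805 to 2954 CPM in saline mice, 11281 to 12182 CPM in PD mice), as were all 7 mesothelial markers (14.02 to 17.2 and 149 to 174 CPM), all 8 fibroblast markers (94.95 to 103 and 853 to 889 CPM) and all 5 lymphatic endothelial markers. All 10 pancreatic acinar markers were higher too (1.21 to 3.50 and 7244 to 8257 CPM). The 7 B cell markers were all lower (5940 to 6201 and 2827 to 2867 CPM). Of the lists in this paragraph, the markers at or under 3 counts in every mouse of a group were 2 acinar genes, *Reg1* and *Clps*, in saline mice. Fewer cells of a type and less RNA per cell cannot be told apart in such bulk libraries. Saline mouse 2 stood apart in GC-rich genes: the tenth of genes richest in GC lay 0.22 below the group mean (log2) in this library, against 0.14 or less on either side of it in the other 5.

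**Figure D1:**
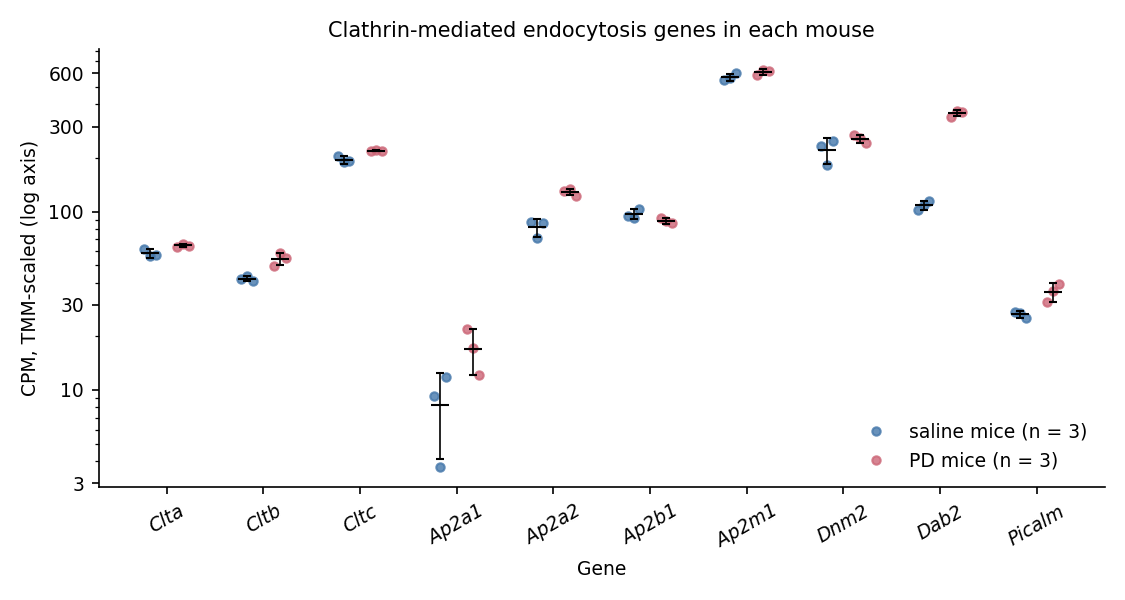
TMM-scaled CPM (log axis) of each gene in each of 3 saline mice and 3 PD mice, with the group mean and SD as a bar with whiskers. The 3 PD mice lie far above the 3 saline mice for Dab2 (341 to 366 against 103 to 115 CPM), Ap2a1 spreads widely within both groups, and Ap2m1 is high in all 6 libraries.

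*Dab2* (Disabled-2, ENSMUSG00000022150) lies on the plus strand of chromosome 15, from 6299788 to 6440712 in GRCm38 (GENCODE M21), with 7 annotated transcripts. Reads are summed over the gene, so the table does not tell which start site they came from. RefSeq (GRCm38.p6) places 2 start sites there, and the 250 bases before each are shown because *Dab2* differed most and its start sites differ in base composition. Capitals mark each CG dinucleotide, and the window of *Cltc*, a heavy chain gene of the same pathway with a 1.12-fold difference, is given for comparison.
Dab2 start site 1 (chr15:6299539-6299788, plus strand): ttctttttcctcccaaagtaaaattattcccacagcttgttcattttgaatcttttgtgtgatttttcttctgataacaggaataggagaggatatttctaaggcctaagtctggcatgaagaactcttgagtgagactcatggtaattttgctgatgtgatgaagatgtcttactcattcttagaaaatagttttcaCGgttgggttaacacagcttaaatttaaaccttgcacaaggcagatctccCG
Dab2 start site 2 (chr15:6386498-6386747, plus strand): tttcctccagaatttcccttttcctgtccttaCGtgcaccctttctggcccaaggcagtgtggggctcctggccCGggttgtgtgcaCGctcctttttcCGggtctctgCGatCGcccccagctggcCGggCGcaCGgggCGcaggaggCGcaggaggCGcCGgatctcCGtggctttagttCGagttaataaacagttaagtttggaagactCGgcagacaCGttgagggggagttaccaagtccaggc
Cltc (chr11:86757568-86757817, minus strand): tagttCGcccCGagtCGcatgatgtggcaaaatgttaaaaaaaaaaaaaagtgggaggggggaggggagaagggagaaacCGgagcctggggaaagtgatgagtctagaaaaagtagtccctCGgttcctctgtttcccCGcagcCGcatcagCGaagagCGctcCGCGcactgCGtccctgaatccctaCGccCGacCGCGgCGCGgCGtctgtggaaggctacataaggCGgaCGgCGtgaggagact
The first *Dab2* window was 36.8% G or C and held 2 CG dinucleotides, whereas the second was 60.0% G or C and held 17. The median of 32851 RefSeq windows of this length was 52.4% G or C with 6 CG dinucleotides, and the 10 windows of the other 9 genes ran from 47.2% to 79.2% with 3 to 39. The *Cltc* window was 58.0% G or C with 22. A GC box (GGGCGG on either strand), the site read by SP1-type factors, occurred in 6 of the 12 windows of the 10 genes and in 32.7% of all windows, and a CCAAT box (CCAAT on either strand) occurred in 4 of the 12 and in 33.8% of all. Neither *Dab2* window held these letters, nor did the *Cltc* window.

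The saline mice had 103, 108 and 115 CPM of *Dab2*, and the PD mice had 341, 366 and 365 CPM. The groups lay far apart, with a spread inside each of a few percent of its mean. The log2 fold change was 1.72 (standard error 0.07, edgeR quasi-likelihood, p adjusted by Benjamini-Hochberg, adjusted p = 5.0e-09), and the 95% interval of the fold ran from 2.97 to 3.64. Of the tested genes, 93.5% had a lower log2 fold change than *Dab2*, and 908 had a higher one. On the per-length FPKM scale *Dab2* moved from rank 4 of the 10 genes in saline mice (34.9 ± 0.66, SD, n = 3) to rank 2 in PD mice (114 ± 1.27, SD, n = 3). Leaving out each mouse in turn gave log2 fold changes of 1.68 to 1.75.

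The marker lists of several other cell types moved in the same direction as *Dab2*. The mean of log2(CPM + 1) over the list was higher in PD mice by 1.98 for the 12 macrophage markers, 2.71 for the 7 mesothelial markers, 2.82 for the 8 fibroblast markers, 1.93 for the 5 lymphatic endothelial markers and 0.94 for the 12 endothelial markers. The same mean was also higher for the pancreatic acinar (8.94), neutrophil (2.52), pericyte and smooth muscle (1.16) and intestinal epithelial (0.77) markers. So was that of the mast cell (0.65), dendritic cell (0.43) and plasma cell (0.22) markers. It was lower for the 7 B cell markers (-0.997), the 5 leukocyte markers (-0.37), the 4 erythroid markers (-0.20) and the 8 T and NK cell markers (-0.13). In each of these lists no value overlapped between the groups (2-sided exact permutation test, p = 0.1, adjusted p = 0.106 over 18 lists). Single markers were mixed in some lists. Of the leukocyte markers 4 were lower and 1 was higher. Of the T and NK cell markers 3 were lower, 1 was higher and 4 did not pass. Of the erythroid markers 1 was lower and 3 did not pass. The plasma cell list had 2 markers higher and 1 lower. Single macrophage markers had log2 fold changes of 0.23 to 3.19, and *Adgre1* (F4/80) had 84.1, 89.7 and 82.8 CPM in saline mice against 350, 340 and 368 CPM in PD mice. The part of these cell types in the *Dab2* value was not tested.

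**Figure D2:**
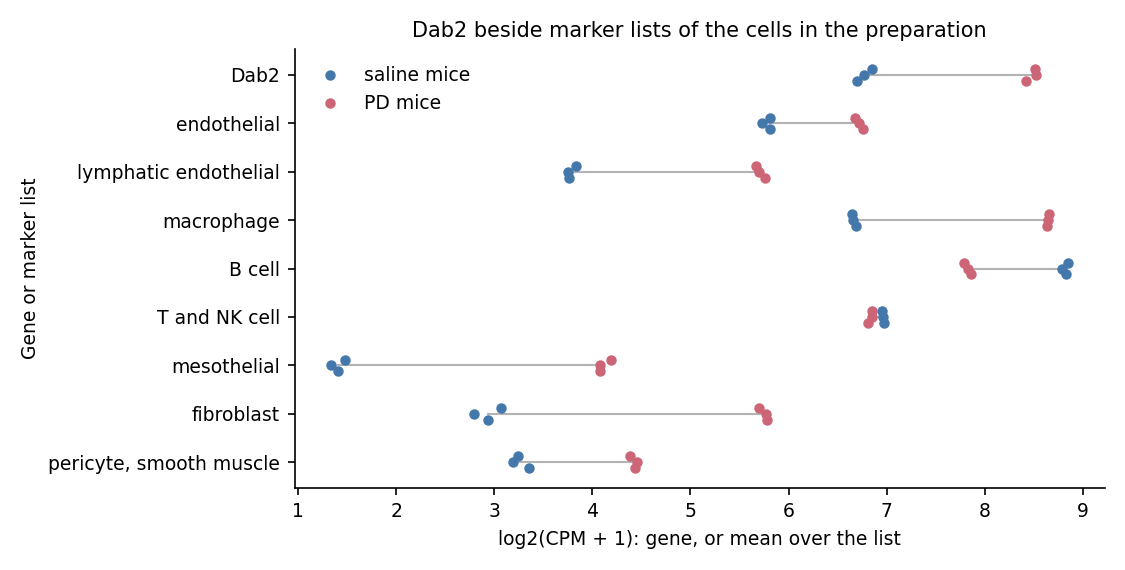
log2(CPM + 1) of Dab2, and the mean of log2(CPM + 1) over each marker list, in each of 3 saline mice and 3 PD mice, with a line joining the group means. Dab2 shifts to the right in PD mice, as do the endothelial, lymphatic endothelial, macrophage, mesothelial, fibroblast and pericyte lists, while the B cell list (-0.997) and, slightly, the T and NK cell list (-0.13) shift to the left. The pancreatic acinar list (8.94 higher in PD mice) and some other lists are not drawn.

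The other adaptor, *Picalm* (ENSMUSG00000039361, chromosome 7, 90130213 to 90213465, plus strand), is the ubiquitous AP180 family protein that shapes coats and sorts VAMP proteins. It had 27.5, 27.2 and 25.3 CPM in the saline mice and 31.1, 35.8 and 39.5 CPM in the PD mice. The groups did not overlap, but the lowest PD mouse lay close to the saline mice. The log2 fold change was 0.41 (standard error 0.10, edgeR adjusted p = 0.0056), a fold of 1.33. *Picalm* was among the weakest of the 10 in FPKM, at 8.26 ± 0.52 (SD, n = 3) in saline mice against 12.0 ± 0.98 (SD, n = 3) in PD mice. The log2 ratio of *Dab2* to *Picalm* FPKM inside each library was 2.17, 1.99 and 2.08 in saline mice against 3.17, 3.40 and 3.17 in PD mice. These ratios did not overlap between the groups and do not depend on library scaling (2-sided exact permutation test, p = 0.1, adjusted p = 0.167 over 5 such quantities), and 3 mice against 3 allow no p below 0.1.

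Of the 3 clathrin chains, *Cltc* and *Cltb* were higher in PD mice by a small margin and *Clta* did not pass the test, while all 3 were lower under endothelial scaling. *Cltc* (ENSMUSG00000047126, chromosome 11, 86694351 to 86757565, minus strand), the heavy chain that builds the cage, had 207, 189 and 192 CPM in saline mice against 218, 222 and 220 CPM in PD mice. The 3 PD mice lay within a few CPM of each other, just above the highest saline mouse. The log2 fold change was 0.17 (standard error 0.06, edgeR adjusted p = 0.0337), a fold of 1.12. This call did not last when saline mouse 2 (adjusted p = 0.0753), saline mouse 3 (0.0964), PD mouse 2 (0.0998) or PD mouse 3 (0.0527) was left out, with the log2 fold change at 0.14 to 0.17 in those fits, nor with DESeq2 (adjusted p = 0.0540).

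*Cltb* (ENSMUSG00000047547, chromosome 13, 54592401 to 54611344, minus strand), the light chain b that takes part in regulating assembly, had 42.0, 43.6 and 40.8 CPM in saline mice against 49.8, 58.5 and 55.2 CPM in PD mice. The groups were apart, with a log2 fold change of 0.37 (standard error 0.08, edgeR adjusted p = 0.0029). After correction for transcript GC content the log2 fold change was 0.20 (edgeR adjusted p = 0.0918), which no longer passed. *Clta* (ENSMUSG00000028478, chromosome 4, 44004452 to 44032846, plus strand), the other light chain, had 62.0, 56.3 and 57.1 CPM in saline mice against 63.7, 65.9 and 64.6 CPM in PD mice. All 3 PD mice lay above all 3 saline mice, yet the log2 fold change of 0.15 (standard error 0.07) did not pass (edgeR adjusted p = 0.0999). In FPKM, *Clta* made up 71.2%, 69.0% and 71.0% of light chain transcript in saline mice against 69.6%, 67.2% and 67.9% in PD mice. These shares overlapped between the groups (2-sided exact permutation test, p = 0.2, adjusted p = 0.25). The log2 ratio of both light chains to the heavy chain in FPKM was 1.30 ± 0.03 (SD, n = 3) in saline mice against 1.33 ± 0.02 (SD, n = 3) in PD mice, with overlapping values.

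Of the 4 AP-2 genes on the list, both alpha genes, whose products bind PIP2, dileucine signals and accessory proteins, were higher in PD mice, and the beta and mu genes did not pass the test (under endothelial scaling *Ap2a1* was not called and the other 3 were lower). *Ap2a2* (ENSMUSG00000002957, chromosome 7, 141562173 to 141633011, plus strand) had 87.8, 71.0 and 86.5 CPM in saline mice against 131, 134 and 123 CPM in PD mice. The groups stood well apart, with saline mouse 2 the lowest. The log2 fold change was 0.66 (standard error 0.09, edgeR adjusted p = 8.4e-05), and it lay between 0.57 and 0.72 in fits without 1 mouse.

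*Ap2a1* (ENSMUSG00000060279, chromosome 7, 44900373 to 44929496, minus strand) was the lowest of the 10 genes, with 9.22, 3.69 and 11.8 CPM in saline mice against 21.96, 17.2 and 12.1 CPM in PD mice. The lowest PD mouse barely exceeded the highest saline mouse, and saline mouse 2 had only 80 reads. The log2 fold change was 1.04 (standard error 0.33, edgeR adjusted p = 0.0187), with a 95% interval of the fold from 1.24 to 3.42. Without PD mouse 1 it was 0.82 and did not pass (edgeR adjusted p = 0.0847), without saline mouse 2 it was 0.71, and DESeq2 did not call it (adjusted p = 0.0716). *Ap2a1* transcripts were 59.3% G or C, the highest of the 10 genes, and after GC correction the log2 fold change was 0.65 (edgeR adjusted p = 0.0407). Its share of alpha subunit transcript in FPKM was 12.8%, 6.64% and 16.5% in saline mice against 19.9%, 15.8% and 11.7% in PD mice, with overlapping groups (2-sided exact permutation test, p = 0.5, adjusted p = 0.5). A read shared by near-identical stretches of the alpha genes, or of the light chain genes, could be assigned to either copy.

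*Ap2m1* (ENSMUSG00000022841, chromosome 16, 20535478 to 20544909, plus strand), the mu subunit that reads tyrosine-based sorting signals, had the highest level of the 10 genes per length in both groups, at 327 ± 15.2 and 354 ± 5.92 FPKM (SD, n = 3 each). It had 548, 564 and 597 CPM in saline mice against 584, 624 and 619 CPM in PD mice. The groups overlapped, and the log2 fold change of 0.10 (standard error 0.06) did not pass (edgeR adjusted p = 0.188). *Ap2b1* (ENSMUSG00000035152, chromosome 11, 83299024 to 83405035, plus strand), the beta subunit that binds clathrin, was the only one of the 10 genes with a negative value. It had 94.4, 92.2 and 104 CPM in saline mice against 92.4, 88.2 and 86.3 CPM in PD mice, with a log2 fold change of -0.12 (standard error 0.07, edgeR adjusted p = 0.159). After GC correction *Ap2b1* was lower in PD mice (log2 fold change -0.18, edgeR adjusted p = 0.0434). *Ap2s1*, the sigma subunit, which is not one of the 10, differed by 0.16 on the log2 scale (standard error 0.07, edgeR adjusted p = 0.0788), and it passed at 0.21 without saline mouse 2 (edgeR adjusted p = 0.0329). The log2 ratio of *Ap2m1* to the sum of both alpha genes in FPKM was 3.88, 4.302 and 3.95 in saline mice against 3.29, 3.40 and 3.55 in PD mice, with no overlap.

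*Dnm2* (ENSMUSG00000033335, chromosome 9, 21424908 to 21507759, plus strand), the dynamin found in nearly all cells, had 234, 182 and 250 CPM in saline mice against 268, 261 and 242 CPM in PD mice. The groups overlapped, and saline mouse 2 was well below the other 5. The log2 fold change was 0.21 (standard error 0.10, 95% interval -0.02 to 0.44, edgeR adjusted p = 0.1004). It passed at 0.30 without saline mouse 3 (edgeR adjusted p = 0.0322), was 0.085 without saline mouse 2 (edgeR adjusted p = 0.314) and was -0.09 after GC correction. *Dnm2* supplied 95.7%, 94.1% and 94.7% of the FPKM of the 3 dynamin genes in saline mice against 93.2%, 93.6% and 93.8% in PD mice. This share was lower in every PD mouse than in every saline mouse (2-sided exact permutation test, p = 0.1, adjusted p = 0.167), but with 1 FPKM added to each gene the difference of -1.31 percentage points became -0.87 (exact permutation p = 0.4).

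**Figure D3:**
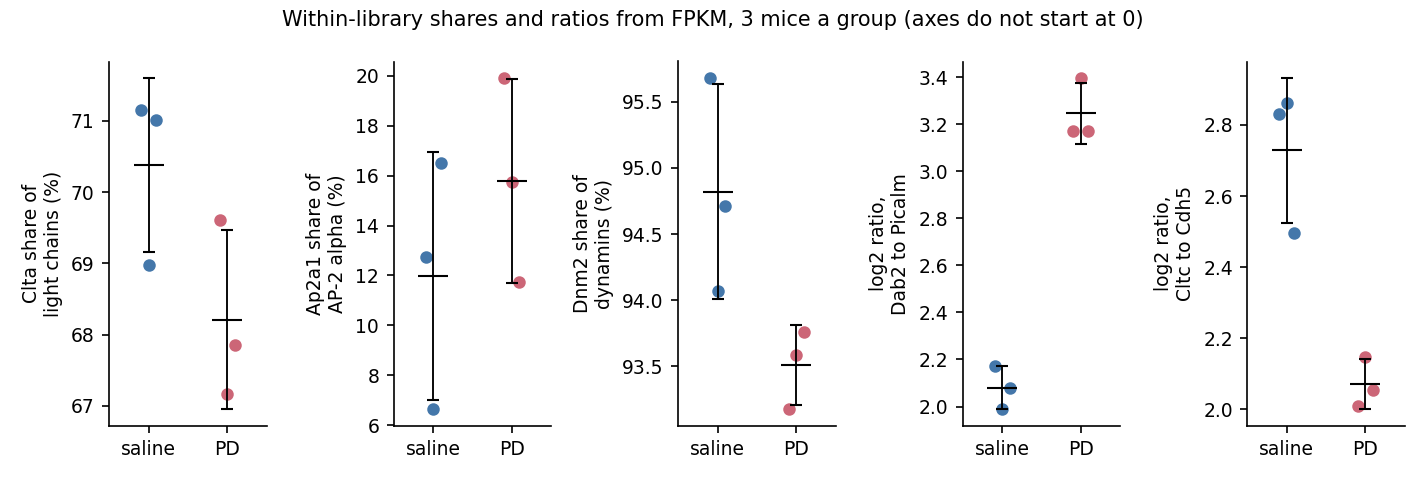
Percent shares and log2 ratios computed from FPKM inside each library, with 1 point per mouse and the mean and SD of 3 mice as a bar with whiskers, on axes that do not start at 0. The ratio of Dab2 to Picalm and the ratio of Cltc to Cdh5 separate the groups, whereas the shares of Clta and of Ap2a1 overlap.

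In order of FPKM, saline mice ranked *Ap2m1*, *Dnm2* (69.0), *Clta* (53.8), *Dab2* (34.9), *Cltc* (31.1), *Ap2b1* (30.1), *Cltb* (22.6), *Ap2a2* (17.5), *Picalm* (8.26) and *Ap2a1* (2.51). Each gene was above the next in every saline mouse except *Cltc* and *Ap2b1*, whose values overlapped. In PD mice the order was *Ap2m1*, *Dab2* (114), *Dnm2* (80.8), *Clta* (60.2), *Cltc* (35.2), *Cltb* (28.1), *Ap2a2* (28.05), *Ap2b1* (25.0), *Picalm* (12.0) and *Ap2a1* (5.37). There *Cltb* and *Ap2a2* overlapped, and so did *Ap2a2* and *Ap2b1*. *Dab2* thus passed *Clta* and *Dnm2*, and *Cltb* and *Ap2a2* passed *Ap2b1*.

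The directions depend on the reference chosen for each library. Scaling to the 12 endothelial markers, themselves mostly higher in PD mice, moved the median log2 fold change of all tested genes from 0.02 to -0.95, and 8.33% of tested genes were then higher and 72.1% lower. Under it *Dab2* was still higher (log2 fold change 0.75, edgeR adjusted p = 8.5e-07) and *Ap2a1* was not called (0.08, edgeR adjusted p = 0.800). The other 8 genes were lower, from -0.31 for *Ap2a2* to -1.09 for *Ap2b1*. Relative to the median of all genes under this scaling the values were 1.70 for *Dab2*, 1.03 for *Ap2a1*, 0.64 for *Ap2a2*, 0.39 for *Picalm* and 0.35 for *Cltb*, and -0.14 to 0.19 for the other 5.

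**Figure D4:**
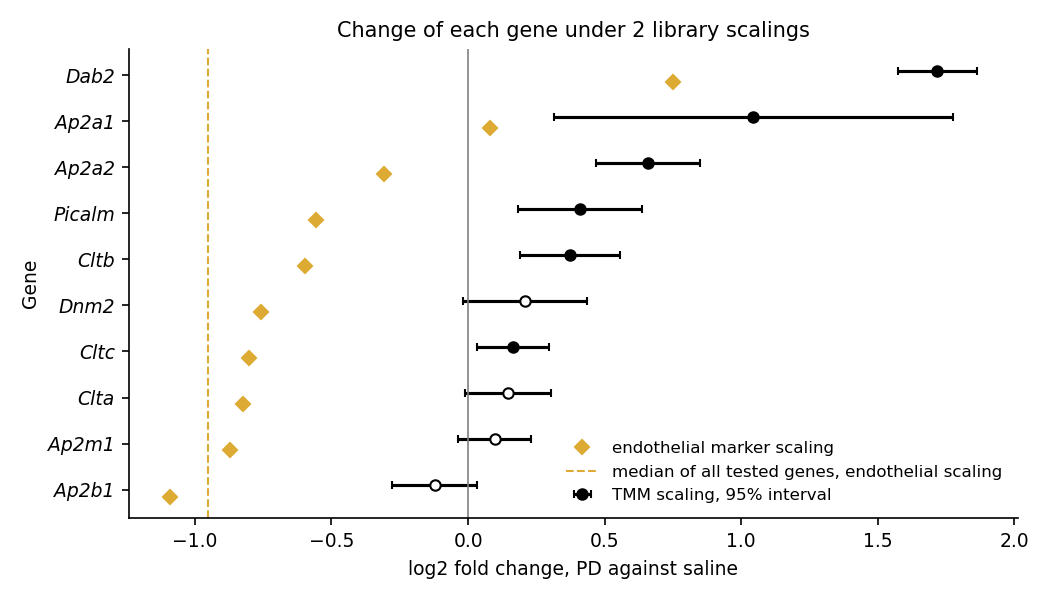
Log2 fold change of each gene, PD against saline mice, with TMM scaling (circles with 95% intervals, filled where the adjusted p was under 0.05) and with scaling to endothelial markers (diamonds, drawn without intervals). Only Dab2 and Ap2a1 stay above 0 under both, and the dashed line marks the median of all tested genes under endothelial scaling, at -0.95.

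Genes whose profile over the 6 libraries was closest to that of *Dab2* were sought among 11024 genes with a mean of at least 100 counts. The closest were *Selp* (P-selectin), *Trf* (transferrin), *Serpine2*, *Pilra* and *Clec4n* (dectin-2), with mean absolute differences of 0.03 to 0.04 between the centred log2(CPM + 1) profiles. Their log2 fold changes ran from 1.70 for *Trf* to 1.76 for *Pilra*. For *Cltc* the closest gene was *Clta* (0.01), its partner in the same cage, followed by *Ilk*, *Rexo4*, *Lsm2* and *Dync1li1*. With 6 libraries in 2 groups, likeness mostly reflects a similar difference between the groups.

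Of 69 further genes of the pathway, 63 were tested, and 26 were higher and 14 lower in PD mice (6 and 42 under endothelial scaling). The median log2 fold change was 0.19, and 63.5% were called, beside 58.9% of all genes (31.1% higher, 27.8% lower). Under endothelial scaling 8.33% of all genes were higher and 72.1% were lower. Genes for membrane curvature and scission were higher in 9 of 14 cases and lower in 4 (92.9% called), with a median of 0.77. Among them were *Dnm1*, the dynamin of nerve terminals (log2 fold change 1.93, standard error 0.30, edgeR adjusted p = 0.00029), *Pacsin3* (1.61) and the sorting nexin *Snx18* (1.29). *Dnm1* was scarce, at 0.67 ± 0.15 CPM in saline mice against 2.54 ± 0.32 CPM in PD mice (SD, n = 3 each). *Pacsin1* (-0.83) and the amphiphysin *Bin1* (-0.65) were lower. *Bin1* had 289, 307 and 284 CPM in saline mice against 180, 190 and 190 CPM in PD mice.

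Of the 9 genes that start and scaffold the pit, 3 were higher and 2 lower. These were 55.6% called, near the 58.9% of all genes (31.1% higher, 27.8% lower). The scaffold *Itsn1* (log2 fold change 1.42, standard error 0.11, edgeR adjusted p = 1.9e-06) and *Reps2* (1.21) were higher, and *Itsn2* (-0.53) was lower. *Itsn1* rose from 13.7, 11.8 and 12.2 CPM in saline mice to 34.4, 37.0 and 29.6 CPM in PD mice. The 2 intersectin genes thus had opposite signs under TMM scaling and under endothelial scaling (0.45 and -1.50). Among cargo adaptors 7 of 14 were higher and 1 was lower, 57.1% called and so also near the share of all genes called. The largest values were those of *Numbl* (2.27) and *Ston2* (1.92), of which *Numbl* averaged 0.44 CPM in saline mice.

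Kinases and lipid enzymes were split, with 3 of 14 higher and 3 lower. This was 42.9% called, below the 58.9% of all genes (31.1% higher, 27.8% lower). The lipid phosphatase *Inppl1* (SHIP2, 1.61) was higher, whereas the lipid kinase *Pik3c2b* (-0.86) and *Bmp2k* (-0.82), a kinase related to the AP-2 kinase AAK1, were lower. *Hspa8*, the Hsc70 chaperone that strips clathrin from vesicles, had 1724, 1864 and 1715 CPM in saline mice against 3792, 4116 and 4177 CPM in PD mice, a fold of 2.28. Its log2 fold change was 1.19 with TMM and 0.22 under endothelial scaling, where it did not pass (edgeR adjusted p = 0.0509). The stress genes induced by tissue dissociation, a list of 8, were higher in 7 cases, with a summed level of 5417 to 5496 CPM in saline mice against 10209 to 10751 CPM in PD mice, and their part in the *Hspa8* value was not tested. Of 9 actin genes 3 were higher and 4 lower (77.8% called), the latter including *Actr2* of the Arp2/3 complex (-0.69), *Dbnl* (-0.50) and *Sh3kbp1* (-0.48).

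**Figure D5:**
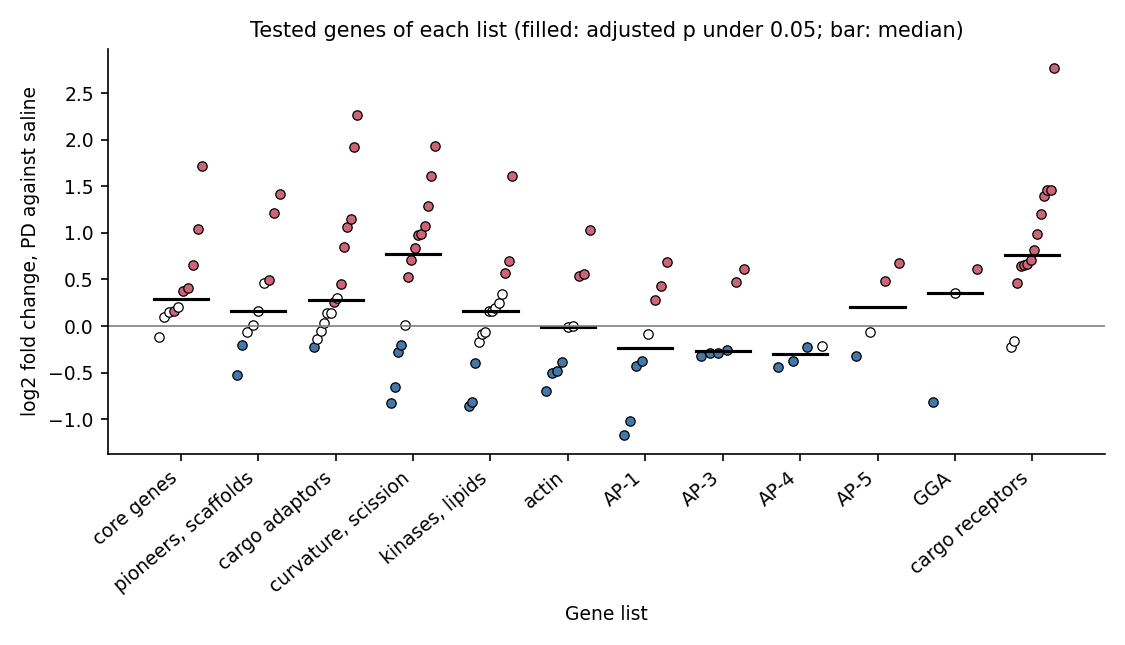
Log2 fold change (PD against saline mice, TMM scaling) of every tested gene of the core list, 5 further pathway lists, 5 adaptor lists and the cargo receptors, filled where the adjusted p was under 0.05, with the median as a bar. Curvature and scission genes (median 0.77) and cargo receptors (0.76) have the highest medians of the lists drawn (the uncoating pair and AP-2 sigma are not drawn), and all called cargo receptors are higher. Under endothelial scaling, which is not drawn, 1 core gene, 6 pathway genes, 0 adaptor genes and 3 cargo receptors are higher, beside 8.33% of all tested genes (72.1% lower).

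The adaptor complexes that serve the Golgi and endosomes were compared because AP-2 shares its design with them. Of 26 genes of AP-1, AP-3, AP-4, AP-5 and the GGA proteins, 25 were tested, and 8 were higher and 13 lower (0 and 23 under endothelial scaling). Their median log2 fold change was -0.23, and 84% were called, beside 58.9% of all genes (31.1% higher, 27.8% lower; 72.1% lower under endothelial scaling). The difference between these genes and the 10 core genes was not tested. *Gga2*, an adaptor for cargo leaving the Golgi, had 304, 301 and 312 CPM in saline mice against 176, 174 and 171 CPM in PD mice (log2 fold change -0.81, standard error 0.06, edgeR adjusted p = 5.4e-07). The AP-1 mu genes *Ap1m2* (-1.17) and *Ap1m1* (-0.43) and the sigma gene *Ap1s3* (-1.01) were also lower. *Ap1s2* (0.69), *Ap5b1* (0.67), *Gga1* (0.62) and *Ap3d1* (0.61) were higher, and all 4 were below 0 under endothelial scaling. *Gga1* did not pass without PD mouse 1 (0.49, edgeR adjusted p = 0.119) or PD mouse 2 (0.61, edgeR adjusted p = 0.0782), and DESeq2 did not call it (adjusted p = 0.105). *Ap5b1* did not pass without PD mouse 1 (0.57, edgeR adjusted p = 0.0513). After GC correction *Gga1* was at 0.11 (edgeR adjusted p = 0.498) and *Ap5b1* at 0.17 (edgeR adjusted p = 0.345).

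Of 15 receptors taken up through clathrin-coated pits, 14 were tested, and edgeR called 12 higher and 0 lower in PD mice (3 higher and 5 lower under endothelial scaling). At an unadjusted p under 0.05 edgeR had 12 higher and 1 lower, and DESeq2 and limma-voom each called 12 and 0. Their median log2 fold change was 0.76, and 85.7% were called, beside 58.9% of all genes (31.1% higher), with 8.33% higher and 72.1% lower under endothelial scaling. The study named VE-cadherin as cargo, so this list was not chosen without regard to these samples, and several of its receptors are endothelial markers as well. *Cdh5* had 18.4, 16.5 and 21.9 CPM in saline mice against 34.0, 32.2 and 33.8 CPM in PD mice (log2 fold change 0.82, standard error 0.11, edgeR adjusted p = 0.00011), and it was -0.15 under endothelial scaling. *Cdh5*, *Kdr* and *Flt1* are among the 12 markers that set this scale, so their values under it are no separate test. In mice with intact *Pfkfb3*, the study reported less VE-cadherin protein in peritoneal ECs after PD fluid. The *Cdh5* values here are RNA and do not measure that protein. The log2 ratio of *Cltc* to *Cdh5* in FPKM was 2.83, 2.86 and 2.49 in saline mice against 2.01, 2.15 and 2.05 in PD mice, lower in every PD mouse (2-sided exact permutation test, p = 0.1, adjusted p = 0.167).

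*Lrp1*, a large endocytic receptor with many ligands, had the greatest difference of the 14, with 6.64, 3.04 and 5.30 CPM in saline mice against 39.4, 33.5 and 30.4 CPM in PD mice (log2 fold change 2.77, standard error 0.22, edgeR adjusted p = 1.5e-06). The VEGF receptors *Flt1* (1.46) and *Kdr* (0.98), the growth factor receptors *Met* (1.46), *Egfr* (1.20), *Insr* (0.70) and *Igf1r* (0.66), and the lipoprotein receptor *Vldlr* (1.39) were higher. So were *Itgb1* (0.65), the integrin beta 1 chain, and *Tgfbr2* (0.46). Under endothelial scaling *Lrp1* (1.81), *Flt1* (0.49) and *Met* (0.49) were still called higher. *Vldlr* (0.43), *Egfr* (0.24) and *Kdr* (0.02) were then not called, nor were *Insr* and *Igf1r*, while *Itgb1* (-0.32) and *Tgfbr2* (-0.51) were called lower. *Tfrc*, the transferrin receptor and classical cargo of AP-2, had 31.4, 35.4 and 30.1 CPM in saline mice against 28.04, 25.7 and 29.0 CPM in PD mice. The groups did not overlap, but its log2 fold change of -0.23 did not pass (edgeR adjusted p = 0.0614). It passed without saline mouse 3 (-0.28, edgeR adjusted p = 0.0455) and under endothelial scaling (-1.20, edgeR adjusted p = 6.9e-08). *Igf2r*, the mannose 6-phosphate receptor, had -0.16 (edgeR adjusted p = 0.148).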

How the data were processed

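The members and gene lists were chosen with earlier results of these data known. For each gene and library the authors deposited an unnormalized read count and an FPKM value, beside group means and their own fold change, p-value and FDR, which were not used. The submitters' processing notes list fastp 0.18.0, Bowtie2 2.2.8, HISAT2, StringTie and RSEM; the genome build is not given in the sources used here, and no strand setting is stated, so overlapping antisense reads cannot be separated. The study's methods name limma for differential expression.

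Of 22183 genes, 14005 passed filterByExpr, and TMM-scaled counts were tested in edgeR 4.0.16 (R 4.3.3; quasi-likelihood, PD against saline, no covariate, Benjamini-Hochberg threshold 0.05). The statistical scripts were tested on simulated data. Shares and ratios used the deposited FPKM. Mice were grouped by the labels; separate mice are replicates. Alternatives were DESeq2 1.42.0, limma 3.58.1 (voom), no filter, other scalings, a replicate block, leaving out each mouse and, chosen after seeing the data, a correction for transcript GC content from GENCODE M21 (22128 genes matched). Values cover counting and mouse-to-mouse error only.

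Named were all 10 core genes, *Ap2s1*, *Hspa8*, the 8 pathway genes and 4 other adaptors with the largest called change in each direction (mean of at least 10 counts, no overlap), any of 15 cargo receptors (1 is counted but not reported here by name), and the 5 genes closest to *Dab2* and *Cltc*. The markers *Pecam1*, *Ptprc* and *Adgre1* were named to check the cells.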

Additional observations from a re-analysis of the deposited data

How the results depend on the processing

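The 10 core genes kept their direction and side of the threshold with no filter on low counts, limma-voom, library totals and upper-quartile scaling. DESeq2 called 4 of them (*Ap2a1* and *Cltc* were lost), the replicate block called 5 (*Cltc* was lost, edgeR adjusted p = 0.0558), and fits without 1 mouse called 5 or 6; without saline mouse 3, *Dnm2* passed and *Cltc* did not. The replicate numbers do not pair the mice (correlations of same-numbered libraries 0.10, 0.04 and -0.17), so the block is no paired result. Endothelial marker scaling gave 1166 genes higher and 10091 lower; by construction it shifts every gene down. It left 1 core gene higher and 8 lower, 6 and 42 pathway genes, 0 and 23 other adaptors, and 3 and 5 cargo receptors. Log2 fold changes reversed by it were *Clta* -0.82, *Cltb* -0.60, *Cltc* -0.80, *Ap2a2* -0.31, *Ap2m1* -0.87, *Dnm2* -0.76, *Picalm* -0.56, *Ap2s1* -0.81, *Ap1s2* -0.29, *Ap5b1* -0.29, *Gga1* -0.35, *Ap3d1* -0.36, *Cdh5* -0.15, *Insr* -0.27, *Igf1r* -0.31, *Itgb1* -0.32 and *Tgfbr2* -0.51. GC content correction, chosen after seeing the data, reversed *Clta* (-0.042), *Dnm2* (-0.094) and *Ap2s1* (-0.10), and left 1 core gene lower (*Ap2b1*), 4 other adaptors higher and 1 cargo receptor lower (*Igf2r*); the cause was not tested. Without 1 mouse, other adaptors numbered 5 (without PD mouse 1) to 9 higher and 8 (without PD mouse 2) to 12 lower, and cargo receptors 0 to 1 lower (*Tfrc*, without saline mouse 3). The difference in mean level of 4 adipocyte markers, PD minus saline, was -0.02 (log2), and 0.0377 from FPKM and -0.0523 to 0.0116 without 1 mouse. Depth limits *Ap2a1*, with 80 to 597 reads per library, and some other named genes had fewer. Among these were *Numbl* (4 to 61 reads), *Dnm1* (14 to 73), *Pacsin3* (19 to 108), *Vldlr* (19 to 135) and *Ap1s3* (28 to 70).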
